A study of Mus musculus with 2 samples.

Results

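Cadherins and the protocadherins that lie outside the clustered protocadherin arrays were described across the cell classes of the embryonic mouse telencephalon. The 36 genes were picked by symbol from the 32285 genes of the count tables, by gene family and not by a threshold on a measured value. They comprised 4 type I cadherins (*Cdh1* to *Cdh4*), 13 type II cadherins (*Cdh5* to *Cdh12*, *Cdh18*, *Cdh19*, *Cdh20*, *Cdh22* and *Cdh24*), T-cadherin (*Cdh13*), 11 non-clustered protocadherins, 3 Celsr genes, and *Fat1*, *Fat3*, *Fat4* and *Dchs1*. Single cells came from dorsal telencephalon of mouse embryos at embryonic day 14.5, dissociated with papain and labelled brain hemispheres at source. The labels' protocol and the study's methods give this region, whereas the study's reporting form names the basal telencephalon for its single cells, and which holds for these libraries is not settled by the sources used here. Both libraries, replicates 1 and 3, carried the genotype label WT and belonged to control animals of the EomesMllt3 line, which the series title ties to Eomes-Cre, and the study's methods give C57BL/6J as the strain. There was no other genotype and no treatment, so the comparisons run between cell classes within these libraries. How many embryos went into a library is not given in the sources used here, and p-values measure only the spread between these 2 libraries, which may be technical.

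Classical cadherins are calcium-dependent adhesion molecules that bind partners on neighbouring cells and reach the actin cytoskeleton through catenins, with type I members building strong junctions and type II members sorting cells into groups. Delta-protocadherins adhere weakly and several of them bind the WAVE actin-regulating complex. Celsr proteins act in planar cell polarity, and Fat and Dachsous proteins bind each other across cell borders. In the developing cortex, N-cadherin (*Cdh2*) holds radial glia together at the ventricular surface, and other cadherins are known for patterns that differ between layers and areas.

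Replicate 1 held 6163 barcodes and 64182006 UMIs, and replicate 3 held 8870 barcodes and 93295807 UMIs. After filtering, 5149 and 6854 cells were kept and fell into 37 clusters, for which names were sought from marker genes that include none of the 36 genes. Of these, 6 clusters with 284 cells of replicate 1 and 62 cells of replicate 3 (5.52% and 0.905% of the cells kept) stayed without a name and entered no comparison. The 36 genes and their pathway partners were also left out of the genes used for clustering. The tests nevertheless compare classes formed from the same cells, and they take no account of that step. The 8 classes compared were radial glia (RGC)-like cells (737 and 1682 cells in replicates 1 and 3), intermediate progenitor (IPC)-like cells (449 and 748), projection neuron-like cells (2920 and 3610), medial ganglionic eminence (MGE) interneuron-like cells (337 and 215), Cajal-Retzius-like cells (40 and 68), meningeal-like cells (43 and 121), pericyte-like cells (38 and 44) and endothelial-like cells (20 and 41). In 7 of them each marker was higher than in the remaining cells of its library, and in the MGE interneuron-like class 8 of 9 were, the other being listed at 0. The same markers had named the classes, so this is no independent check of the names. The MGE interneuron-like cells were shallow, with medians of 4506 and 4018 UMIs per cell against 11102.5 and 10663 in the projection neuron-like cells. Cells of a lateral ganglionic eminence (LGE)-like class were found in replicate 1 only (130 cells), and the libraries shared 23 barcodes. Erythroid-like cells, which should lack these genes, had no UMI of 18 of the 36 genes in either library, and the highest level there was 53.4 CPM of *Cdh2* in replicate 1 against 5.19 CPM in replicate 3.

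Levels are given as CPM, the UMIs of a gene per 1000000 UMIs summed over all cells of a class in 1 library. Since 3′-end counts do not scale with transcript length, a gene was compared between classes and not with other genes. Of the 36 genes, 30 reached 10 CPM in both replicates of at least 1 of the 8 classes. The other 6, *Cdh1*, *Cdh3*, *Cdh9*, *Cdh19*, *Cdh22* and *Pcdh20*, stayed at or under 14.7 CPM in each of the 8 classes. For 26 of the 30 genes, the class of the highest level was the same in both replicates. These classes were Cajal-Retzius-like for 6 genes (*Cdh4*, *Cdh7*, *Cdh18*, *Pcdh11x*, *Celsr2* and *Fat3*), projection neuron-like for 6 (*Cdh10*, *Cdh12*, *Cdh13*, *Pcdh7*, *Pcdh9* and *Fat4*), and MGE interneuron-like for 5 (*Cdh24*, *Pcdh8*, *Pcdh19*, *Celsr3* and *Dchs1*). RGC-like cells were highest for 3 genes (*Cdh6*, *Cdh20* and *Pcdh10*) and endothelial-like cells for 3 (*Cdh2*, *Cdh5* and *Pcdh1*), while IPC-like, meningeal-like and pericyte-like cells were highest for 1 each (*Celsr1*, *Cdh11* and *Pcdh18*). For 23 of the 30 genes, both replicates of the highest class lay above both replicates of each other class. The counts of 26 and 23 were not made over all genes. The 30 genes were also kept for reaching 10 CPM in some class, so neither count is read as particular to them. *Cdh2* was the one gene at 10 CPM or more in both replicates of all 8 classes.

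**Figure D1:**
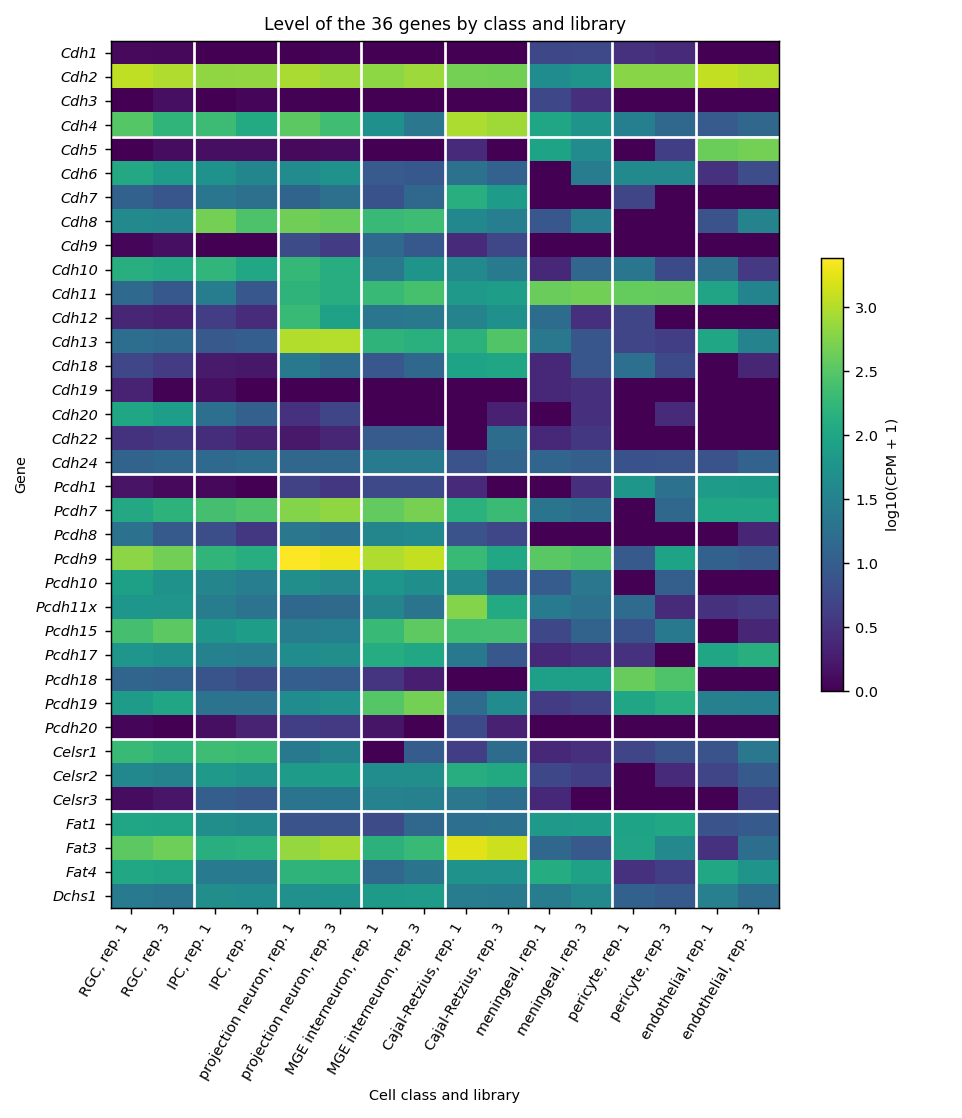
Level of each of the 36 genes (rows, grouped into type I, type II and T-cadherin, protocadherin, Celsr, and Fat and Dachsous genes by white lines) in 8 cell classes with replicates 1 and 3 side by side (columns). Colour gives log10(CPM + 1), and the 6 genes at or under 14.7 CPM in each class (*Cdh1*, *Cdh3*, *Cdh9*, *Cdh19*, *Cdh22* and *Pcdh20*) appear as dark rows.

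Among the type I cadherins, *Cdh2*, the N-cadherin of neural progenitors, was widespread. It stood at 1152 and 970 CPM in the RGC-like class (replicates 1 and 3), 677 and 696 CPM in the IPC-like class, 916 and 781 CPM in the projection neuron-like class, and 1191 and 1037 CPM in the endothelial-like class. The endothelial-like and RGC-like ranges overlapped, and their difference did not pass the test (log2 fold change 0.24, SE 0.16, adjusted p = 0.25). Meningeal-like cells were the exception, with 43.6 and 56.2 CPM, below RGC-like cells with -4.26 on the log2 scale (SE 0.20, adjusted p = 3.0e-10). *Cdh4*, or R-cadherin, a retinal and brain cadherin, was highest in Cajal-Retzius-like cells at 944 and 805 CPM, against 338 and 222 CPM in the projection neuron-like class and 49.9 and 20.9 CPM in the MGE interneuron-like class. The 3 groups did not overlap, and the excess of *Cdh4* in Cajal-Retzius-like over projection neuron-like cells passed the test (1.37, SE 0.36, adjusted p = 0.011). MGE interneuron-like cells had less of it than projection neuron-like cells (-3.00, SE 0.43, adjusted p = 8.8e-05). Its level was higher in replicate 1 than in replicate 3 in 7 of the 8 classes. *Cdh1*, the epithelial E-cadherin, had at most 4.52 CPM in the 8 classes, and *Cdh3*, or P-cadherin, at most 4.36 CPM, both in meningeal-like cells.

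The type II cadherins divided the progenitor and neuron classes among them. *Cdh20* was a radial glia-like gene, at 96.8 and 76.0 CPM in the RGC-like class, 16.2 and 9.83 CPM in the IPC-like class, and 2.09 and 4.13 CPM in the projection neuron-like class. None of these groups overlapped, and *Cdh20* fell from RGC-like to IPC-like cells (log2 fold change -2.66, SE 0.30, adjusted p = 1.8e-05) and again to projection neuron-like cells (-1.80, SE 0.31, adjusted p = 0.00040). *Cdh6*, a marker of parts of the early cortex, was likewise highest in RGC-like cells, at 111 and 70.8 CPM against 53.4 and 35.1 CPM in the IPC-like class. This difference passed the test (-0.97, SE 0.32, adjusted p = 0.030) but not with predicted doublets kept, at Leiden resolution 2.0, or with DESeq2.

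*Cdh8* showed the opposite course and peaked in newborn neuron-like cells. It stood at 41.4 and 35.7 CPM in the RGC-like class, 478 and 279 CPM in the IPC-like class, and 1034 and 801 CPM in the newborn neuron-like class. It was lower again in upper-layer-like cells (260 and 156 CPM) and deep-layer-like cells (154 and 91.8 CPM). The rise from RGC-like to IPC-like cells came to 3.35 on the log2 scale (SE 0.33, adjusted p = 3.1e-06), and the fall from newborn neuron-like to deep-layer-like cells to -2.85 (SE 0.34, adjusted p = 0.00013). Upper-layer-like cells lay above deep-layer-like cells in both replicates, by 0.73 (SE 0.33), which missed the threshold (adjusted p = 0.15) and passed it with the replicate as a block (0.73, adjusted p = 0.0026). After thinning each cell to 3000 UMIs, 45.5% (95% Wilson interval 41.0 to 50.2) and 32.7% (29.4 to 36.3) of IPC-like cells held a *Cdh8* UMI, against 9.79% (7.82 to 12.2) and 8.89% (7.61 to 10.4) of RGC-like cells. Unthinned, these shares of cells with *Cdh8* were 62.6% and 45.1% against 21.4% and 19.98%, at median depths of 10790 and 9975.5 UMIs in IPC-like cells and 12605 and 11766 UMIs in RGC-like cells. The thinned share in erythroid-like cells was 2.08% and 0%, at median depths of 4746 and 3270 UMIs. All intervals cover counting error only.

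*Cdh10* and *Cdh12* had unlike courses. *Cdh10* was present from progenitors onwards, at 134 and 116 CPM in the RGC-like class, 169 and 102 CPM in the IPC-like class and 181 and 130 CPM in the projection neuron-like class. These classes overlapped, and neither step passed the test (0.18, SE 0.33, adjusted p = 0.72, and 0.36, SE 0.33, adjusted p = 0.41). Within projection neurons *Cdh10* lay at 263 and 189 CPM in the newborn neuron-like class against 79.5 and 94.2 CPM in the deep-layer-like class, and fell between them (-1.33, SE 0.26, adjusted p = 0.0025). Clusters of projection neurons left without a layer name had 449 and 324 CPM of *Cdh10* (led by *Tafa1*), 141.9 and 36.8 CPM (led by *Ldb2*) and 189.4 and 102.9 CPM (led by *Plxna4os3*). *Cdh12* was close to absent from progenitors, at 1.31 and 1.03 CPM in the RGC-like class and 3.13 and 1.68 CPM in the IPC-like class, and stood at 192 and 86.2 CPM in the projection neuron-like class. Among the named subclasses of these neurons it was highest in upper-layer-like cells, with 383 and 246 CPM against 19.8 and 31.9 CPM in the deep-layer-like class. The groups did not overlap, and the log2 fold changes were 5.93 from IPC-like to projection neuron-like cells (SE 0.47, adjusted p = 1.8e-07) and 3.57 from deep-layer-like to upper-layer-like cells (SE 0.37, adjusted p = 0.00019). The clusters left without a layer name also carried it, at 392 and 168 CPM in the one led by *Ldb2* and 379 and 167 CPM in the one led by *Tafa1*.

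Within projection neurons, *Cdh18* and *Cdh9* were higher in deep-layer-like cells than in newborn neuron-like or upper-layer-like cells. *Cdh18* had 50.8 and 39.0 CPM in the deep-layer-like class, 1.11 and 0.764 CPM in the upper-layer-like class and 4.61 and 2.79 CPM in the newborn neuron-like class. Deep-layer-like cells were clear of the others in both replicates, with a log2 fold change of -5.37 for upper-layer-like against deep-layer-like cells (SE 0.35, adjusted p = 1.3e-05). Cajal-Retzius-like cells held more, at 91.5 and 101 CPM, above projection neuron-like cells (22.6 and 14.8 CPM) by 2.08 (SE 0.29, adjusted p = 8.1e-05). *Cdh9*, a synaptic cadherin of hippocampal mossy fibres, was low throughout. Among the 8 classes it was highest in MGE interneuron-like cells in both replicates, at 13.6 and 7.59 CPM (24 and 8 UMIs), and it passed the filter on low counts only in the fit of the projection neuron subclasses. There *Cdh9* reached 12.2 and 8.78 CPM in the deep-layer-like class against 0.750 and 0.0650 CPM in the newborn neuron-like class (4.37, SE 0.59, adjusted p = 0.00044). These levels rest on 126 and 108 UMIs against 7 and 1. Passing the filter thus rested on the class found higher, and the p-value gives no independent support for the difference. In upper-layer-like cells a single *Cdh9* UMI was counted.

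*Cdh11* and *Cdh7* were highest in classes outside the progenitors. *Cdh11*, a cadherin of mesenchyme and of neurons, stood at 416 and 467 CPM in the meningeal-like class, 388 and 370 CPM in the pericyte-like class, 196 and 248 CPM in the MGE interneuron-like class and 158 and 129 CPM in the projection neuron-like class. RGC-like cells had 13.4 and 7.57 CPM, below meningeal-like cells by 5.51 (SE 0.44, adjusted p = 9.8e-08) and below pericyte-like cells by 5.28 (SE 0.45, adjusted p = 2.0e-07) on the log2 scale. Among projection neurons it was highest in deep-layer-like cells, at 345 and 271 CPM against 63.6 and 90.7 CPM in the upper-layer-like class (-2.02, SE 0.39, adjusted p = 0.0059). *Cdh7* was highest in Cajal-Retzius-like cells (138 and 74.5 CPM) and did not exceed 20.1 CPM in the other 7 classes. Over projection neuron-like cells its excess was 2.60 (SE 0.33, adjusted p = 6.3e-05).

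*Cdh5*, the vascular endothelial cadherin, had 424 and 475 CPM in the endothelial-like class and 91.6 and 42.0 CPM in the meningeal-like class, and at most 3.21 CPM elsewhere. The 9 endothelial markers that named the endothelial-like class summed to 7266 and 6420 CPM there and to 29.07 and 51.06 CPM in meningeal-like cells, where 5 and 8 of them had a UMI. Endothelial-like cells exceeded RGC-like cells (0 and 0.282 CPM) by 10.09 on the log2 scale (SE 0.40, adjusted p = 1.2e-10), which rests on 6 UMIs in the RGC-like cells. After thinning to 3000 UMIs, 55.0% (34.2 to 74.2) and 71.8% (56.2 to 83.5) of endothelial-like cells had a *Cdh5* UMI, against 20.9% (11.4 to 35.2) and 12.4% (7.66 to 19.5) of meningeal-like cells. The unthinned shares for *Cdh5* were 95% and 95.1% against 30.2% and 25.6%, at median depths of 20120 and 13375 UMIs in endothelial-like cells and 14576 and 11452 UMIs in meningeal-like cells. No erythroid-like cell in either library held a *Cdh5* UMI. *Cdh24* was low, at 11.2 and 12.9 CPM in the RGC-like class and 23.8 and 24.7 CPM in the MGE interneuron-like class, and it was higher in the latter than in projection neuron-like cells (12.2 and 13.0 CPM) by 0.84 (SE 0.21, adjusted p = 0.0062). This call was lost without the filter on low counts (0.69, adjusted p = 0.053) and with predicted doublets kept (0.48, adjusted p = 0.087). *Cdh22* stood at 8.5 and 8.54 CPM in the MGE interneuron-like class against 0.705 and 1.32 CPM in the projection neuron-like class (2.71, SE 0.61, adjusted p = 0.0042). *Cdh19*, known from Schwann cell precursors, had at most 1.94 CPM in the 8 classes.

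*Cdh13*, or T-cadherin, a cadherin held to the membrane by a lipid anchor, changed the most between IPC-like and projection neuron-like cells of the 31 genes tested. It stood at 15.8 and 13.5 CPM in the RGC-like class, 7.82 and 9.19 CPM in the IPC-like class, and 1008 and 1028 CPM in the projection neuron-like class. The 2 replicates lay close together and far above the progenitors, on the log2 scale by 7.0 (SE 0.40, adjusted p = 3.3e-09). The level was graded over the projection neuron subclasses, from 143 and 146 CPM in the newborn neuron-like class through 739 and 975 CPM in the upper-layer-like class to 1878 and 1864 CPM in the deep-layer-like class. Both differences passed the test, by 3.73 for deep-layer-like against newborn neuron-like cells (SE 0.15, adjusted p = 1.9e-07) and by -1.15 for upper-layer-like against deep-layer-like cells (SE 0.13, adjusted p = 0.00037). The unassigned cluster led by *Ldb2* also carried much of it, at 1349 and 2024 CPM. In cells thinned to 3000 UMIs, 59.4% (57.6 to 61.2) and 57.7% (56.0 to 59.3) of projection neuron-like cells had a *Cdh13* UMI, against 3.36% (2.27 to 4.95) and 3.05% (2.32 to 3.99) of RGC-like cells and 2.08% (0.369 to 10.9) and 0% (0 to 5.66) of erythroid-like cells. The intervals of the erythroid-like cells were wide and overlapped those of the RGC-like cells. Whether the shares in RGC-like cells exceed this background cannot be told from them. Unthinned, 69.9% and 66.2% of projection neuron-like cells and 9.77% and 9.63% of RGC-like cells had a *Cdh13* UMI, at median depths of 11102.5 and 10663 UMIs and of 12605 and 11766 UMIs. A summed level cannot tell fewer cells with a transcript from less transcript per cell.

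**Figure D2:**
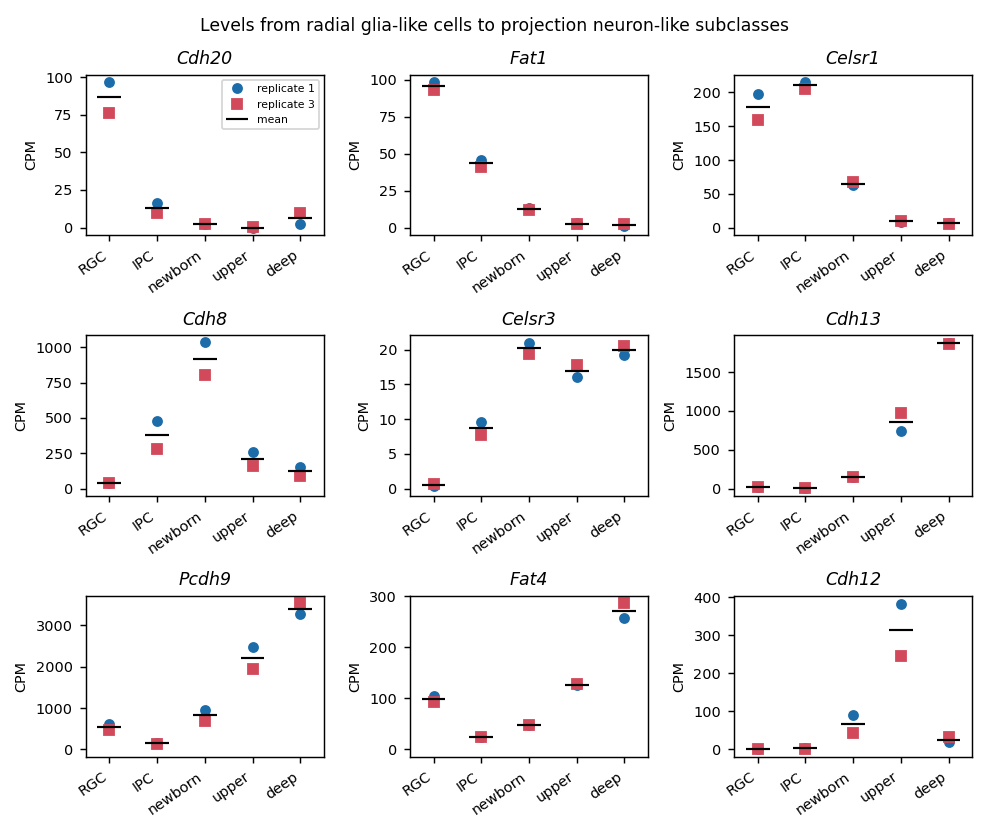
Levels in CPM of 9 genes in RGC-like, IPC-like, newborn neuron-like, upper-layer-like and deep-layer-like cells, with a blue circle for replicate 1, a red square for replicate 3 and a bar for their mean. *Cdh20*, *Fat1* and *Celsr1* are highest in progenitors, *Cdh8* peaks in newborn neuron-like cells at 1034 and 801 CPM, *Cdh13*, *Pcdh9* and *Fat4* are highest in deep-layer-like cells, and *Cdh12* is highest in upper-layer-like cells at 383 and 246 CPM.

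Of the delta-protocadherins, *Pcdh9* and *Pcdh7*, both delta-1 members, were abundant in neurons. *Pcdh9* stood at 624 and 464 CPM in the RGC-like class, 166 and 127 CPM in the IPC-like class, and 2443 and 2046 CPM in the projection neuron-like class. It thus fell from RGC-like to IPC-like cells (-1.82, SE 0.40, adjusted p = 0.0023) and rose to projection neuron-like cells (4.09, SE 0.43, adjusted p = 1.8e-06). Deep-layer-like cells held 3267 and 3531 CPM, newborn neuron-like cells 944 and 697 CPM, and the unassigned cluster led by *Tafa1* 4407 and 3740 CPM. *Pcdh7* increased at both steps, from 110 and 155 CPM in the RGC-like class through 247 and 286 CPM in the IPC-like class to 565 and 676 CPM in the projection neuron-like class. Unlike *Pcdh9*, it was highest in newborn neuron-like cells at 948 and 1268 CPM, and lower in deep-layer-like cells at 383 and 284 CPM (-1.68, SE 0.23, adjusted p = 0.00028).

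*Pcdh11x*, the X-linked delta-1 member, stood at 576 and 116 CPM in the Cajal-Retzius-like class and at 12.8 and 13.9 CPM in the projection neuron-like class. The Cajal-Retzius-like class was clear of the others in both libraries, although its replicates differed from each other, and the log2 fold change was 4.37 (SE 0.49, adjusted p = 9.5e-06). *Pcdh1*, the remaining delta-1 member, was a vascular gene here, at 70.9 and 69.2 CPM in the endothelial-like class and 60.6 and 17.6 CPM in the pericyte-like class against 0.503 and 0.235 CPM in the RGC-like class. It was higher than in RGC-like cells in both (7.02, SE 0.53, adjusted p = 4.6e-08, and 6.05, SE 0.58, adjusted p = 7.5e-07). In the pericyte-like class 8 of 9 endothelial markers had a UMI and summed to 543.8 and 428 CPM, and their part in its *Pcdh1* level was not tested.

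*Pcdh19*, a delta-2 member whose human counterpart is mutated in an epilepsy of girls, was highest in MGE interneuron-like cells at 312 and 473 CPM, against 43.7 and 50.8 CPM in the projection neuron-like class, 70.9 and 101 CPM in the RGC-like class and 101 and 133 CPM in the pericyte-like class. The class did not overlap with any other, and its excess over projection neuron-like cells was 2.94 (SE 0.24, adjusted p = 4.4e-07). After thinning to 3000 UMIs, 40.7% (34.96 to 46.6) and 63.6% (55.8 to 70.8) of MGE interneuron-like cells had a *Pcdh19* UMI, against 9.71% (8.67 to 10.9) and 10.2% (9.26 to 11.3) of projection neuron-like cells and 0% and 1.56% of erythroid-like cells. Unthinned, the shares for *Pcdh19* were 47.8% and 60.5% against 19.5% and 21.4%, at the median depths of 4506 and 4018 UMIs and of 11102.5 and 10663 UMIs, and 69 and 61 MGE interneuron-like cells were too shallow to be thinned. Within projection neurons, *Pcdh19* was higher in deep-layer-like cells (46.2 and 64.8 CPM) than in newborn neuron-like cells (10.8 and 16.2 CPM; 2.04, SE 0.41, adjusted p = 0.0029). The unassigned clusters held 134 and 160 CPM (led by *Tafa1*), 52.4 and 111 CPM (led by *Ldb2*) and 18.04 and 33.55 CPM (led by *Plxna4os3*).

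The other delta-2 members differed in where they were highest. *Pcdh18* stood at 402 and 288 CPM in the pericyte-like class and 80.0 and 80.1 CPM in the meningeal-like class, against 11.8 and 10.7 CPM in the RGC-like class. Both classes exceeded RGC-like cells, by 5.0 (SE 0.20, adjusted p = 5.6e-10) and 2.92 (SE 0.20, adjusted p = 8.4e-08). The 8 pericyte markers summed to 1233 and 1229 CPM in meningeal-like cells (6 and 7 of them with a UMI) against 8685 and 6277 CPM in pericyte-like cells, and their part in the meningeal *Pcdh18* and *Cdh11* levels was not tested. *Pcdh17* was highest in MGE interneuron-like cells in replicate 1 (126 CPM, against 98.0 CPM in endothelial-like cells) and in endothelial-like cells in replicate 3 (137 CPM, against 105 CPM in MGE interneuron-like cells), so that the order of these classes differed between libraries. *Pcdh10* stood at 84.0 and 52.5 CPM in the RGC-like class and 58.9 and 47.5 CPM in the MGE interneuron-like class, which overlapped. *Pcdh8*, known for its induction by neuronal activity, had 34.6 and 39.9 CPM in the MGE interneuron-like class and 21.2 and 17.1 CPM in the projection neuron-like class, a difference that missed the threshold (0.84, SE 0.35, adjusted p = 0.086) and passed it with the replicate as a block (0.80, adjusted p = 0.035). It fell from RGC-like cells (17.5 and 8.0 CPM) to IPC-like cells (5.48 and 2.59 CPM; -1.55, SE 0.39, adjusted p = 0.0078). *Pcdh20*, which is not a delta member, was low, at no more than 4.81 CPM in any of the 8 classes.

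*Pcdh15*, best known as a tip-link component of hair cells, was shared by RGC-like cells (247 and 336 CPM), MGE interneuron-like cells (198 and 351 CPM) and Cajal-Retzius-like cells (233 and 237 CPM), whose levels overlapped. IPC-like cells had 61.0 and 75.4 CPM and projection neuron-like cells 25.6 and 28.1 CPM, both below these classes in each replicate. The log2 fold changes against projection neuron-like cells were 3.23 for MGE interneuron-like cells (SE 0.27, adjusted p = 5.7e-07) and 2.85 for Cajal-Retzius-like cells (SE 0.28, adjusted p = 2.7e-06). Within projection neurons it was nearly missing from upper-layer-like cells, at 1.11 and 3.06 CPM against 30.4 and 39.2 CPM in the deep-layer-like class (-3.93, SE 0.39, adjusted p = 0.00015). The RGC-like clusters were unequal too, with 493 and 526 CPM in the one led by *Ltbp1* and 55.6 and 39.9 CPM in the mitotic one led by *Cenpa*.

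The 3 Celsr genes, mammalian counterparts of the fly polarity gene flamingo, followed each other from progenitor to neuron. *Celsr1* was a progenitor gene, at 198 and 160 CPM in the RGC-like class, 216 and 204 CPM in the IPC-like class, and 22.4 and 31.3 CPM in the projection neuron-like class. The difference between the progenitor classes did not pass the test (0.30, SE 0.27, adjusted p = 0.43), whereas the fall to projection neuron-like cells passed it (-2.81, SE 0.29, adjusted p = 1.4e-06). Newborn neuron-like cells still held 62.6 and 67.1 CPM of *Celsr1*, against 6.65 and 6.02 CPM in the deep-layer-like class (-3.28, SE 0.13, adjusted p = 1.9e-07). *Celsr2* was found in progenitors and neurons alike, with 36.6 and 32.1 CPM in the RGC-like class, 66.7 and 55.9 CPM in the IPC-like class, 70.4 and 71.4 CPM in the projection neuron-like class, and most in Cajal-Retzius-like cells at 130 and 114 CPM. *Celsr3*, which is needed for long axon tracts, stood at 0.302 and 0.612 CPM in the RGC-like class, 9.58 and 7.76 CPM in the IPC-like class, 18.9 and 19.6 CPM in the projection neuron-like class and 30.6 and 28.5 CPM in the MGE interneuron-like class. None of these classes overlapped, and *Celsr3* rose by 3.57 at the first step (SE 0.33, adjusted p = 1.9e-06) and by 1.29 at the second (SE 0.25, adjusted p = 0.00075).

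Promoter windows from RefSeq (build GRCm38.p6) were found for 24 of the 36 genes, and 8 short motifs were searched on both strands of the 250 bases before each of 32851 transcript starts. CAGATG was present in 14.4% of all windows and in windows of 3 of the 24 genes, CAGCTG in 13.0% and 2, GGGCGG in 32.7% and 9, and CCGGAAG in 6.91% and 0. TATAAA was present in 12.4% of all windows and 2 of the 24 genes, ACAAAG in 16.5% and 4, and GGAATG in 12.6% and 4. TTCAGCACC, the first part of the site known to be bound by REST, a repressor of neuronal genes outside neurons, was present in 99 windows (0.301%) and in those of 2 of the 24 genes, *Celsr3* and *Cdh9*. These 2 sequences are shown because they hold this match, which the capitals mark. The percentages count transcript windows, whereas a gene was counted if any of its windows held the motif, so they are not directly comparable. Whether REST has a part in the levels of these genes was not tested. The *Celsr3* sequence (chr9:108825795-108826022, plus strand) comprises the 228 bases before the gene, with the match 105 bases before its start. The *Cdh9* sequence (chr15:16728883-16728912, plus strand) is the 30 bases around a match that reads on the opposite strand, 343 bases after the start of the gene and before another annotated transcript start. A match is a description of letters and not evidence of binding.
Celsr3: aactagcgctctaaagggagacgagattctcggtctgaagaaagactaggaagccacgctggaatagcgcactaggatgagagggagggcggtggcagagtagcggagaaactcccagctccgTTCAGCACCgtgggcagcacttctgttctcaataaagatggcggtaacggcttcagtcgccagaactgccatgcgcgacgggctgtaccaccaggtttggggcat
Cdh9: agttaaaagtGGTGCTGAAagagaggctca

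In the Fat and Dachsous group, *Fat1* and *Fat4* had unlike courses. *Fat1*, which lies at apical junctions of radial glia, fell stepwise from 98.5 and 93.2 CPM in the RGC-like class through 46.0 and 41.0 CPM in the IPC-like class to 6.38 and 6.44 CPM in the projection neuron-like class. Both steps passed the test (-1.07, SE 0.14, adjusted p = 4.5e-05, and -2.56, SE 0.15, adjusted p = 5.6e-09). The difference between pericyte-like cells (91.0 and 103 CPM) and RGC-like cells in *Fat1* did not pass it (0.11, SE 0.18, adjusted p = 0.65). *Fat4*, the partner of *Dchs1*, stood at 104 and 92.8 CPM in the RGC-like class, 23.7 and 24.3 CPM in the IPC-like class, and 159 and 156 CPM in the projection neuron-like class. IPC-like cells were thus the low point, with changes of -1.95 (SE 0.19, adjusted p = 1.8e-06) and 2.85 (SE 0.19, adjusted p = 1.6e-08) on either side. *Fat4* was graded from 47.0 and 48.0 CPM in the newborn neuron-like class through 125 and 128 CPM in the upper-layer-like class to 257 and 287 CPM in the deep-layer-like class, while MGE interneuron-like cells had 13.0 and 19.0 CPM (-3.43 against projection neuron-like cells, SE 0.25, adjusted p = 9.7e-08).

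*Fat3*, which shapes dendrites in the retina, was highest in Cajal-Retzius-like cells at 1736 and 1349 CPM, followed by projection neuron-like cells at 711 and 842 CPM and RGC-like cells at 339 and 439 CPM. The 3 classes did not overlap, but the difference between Cajal-Retzius-like and projection neuron-like cells missed the threshold (0.72, SE 0.28, adjusted p = 0.072) and passed it with the replicate as a block (0.73, adjusted p = 0.038). IPC-like cells held 133 and 143 CPM, with a fall from RGC-like cells (-1.42, SE 0.28, adjusted p = 0.0012) and a rise towards neurons (2.63, SE 0.30, adjusted p = 3.1e-06). The call for the fall was lost at Leiden resolution 2.0 (-0.58, adjusted p = 0.14) and with the 36 genes among the variable genes (-0.64, adjusted p = 0.095), while the rise passed in each of the 8 alternatives. *Dchs1* was highest in MGE interneuron-like cells at 68.5 and 72.2 CPM, with 51.2 and 51.7 CPM in the projection neuron-like class, 46.7 and 43.1 CPM in the IPC-like class and 23.3 and 20.2 CPM in the RGC-like class. It rose from RGC-like to IPC-like cells (1.11, SE 0.16, adjusted p = 6.0e-05).

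The comparisons below share classes, and therefore libraries, so that their counts are not independent of each other. Between RGC-like and IPC-like cells, the step from apical to basal progenitor, 31 of the 36 genes could be tested. In IPC-like cells 6 were higher (*Cdh7*, *Cdh8*, *Pcdh7*, *Celsr2*, *Celsr3* and *Dchs1*) and 15 lower (*Cdh2*, *Cdh6*, *Cdh18*, *Cdh20*, *Pcdh8*, *Pcdh9*, *Pcdh10*, *Pcdh11x*, *Pcdh15*, *Pcdh17*, *Pcdh18*, *Pcdh19*, *Fat1*, *Fat3* and *Fat4*). Of all 12907 genes tested, 16.1% were higher and 18.2% lower. The protocadherins that changed, apart from *Pcdh7*, were lower in IPC-like cells, with *Pcdh19* going from 70.9 and 101 CPM to 18.6 and 18.2 CPM (-2.15, SE 0.25, adjusted p = 1.3e-05). The median log2 fold change was -0.68 over the 31 genes and -0.01 over all genes. With the replicate as a block, *Cdh4* also passed (-0.47, adjusted p = 0.034). Keeping predicted doublets ended 8 of the 21 calls (*Cdh2*, *Cdh6*, *Cdh18*, *Pcdh7*, *Pcdh10*, *Pcdh11x*, *Pcdh17* and *Pcdh18*), that of *Fat3* was lost under 2 other clusterings, and 12 of the 21 passed in each of 8 alternatives.

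The partner counts for this step stand against the same 16.1% higher and 18.2% lower of all genes tested. Among partners, 3 of the 20 catenin and junction linker genes were higher in IPC-like cells and 7 lower, with *Vcl*, which couples junctions to actin, at -1.78 (SE 0.18, adjusted p = 2.0e-06) and *Pkp4* at -1.62 (SE 0.25, adjusted p = 0.00013). Of 15 planar polarity and Fat-Dachsous partners, 2 were higher and 2 lower, the latter being *Prickle1* (-2.52, SE 0.27, adjusted p = 5.0e-06) and *Fjx1* (-1.59, SE 0.23, adjusted p = 6.7e-05), whose product is a kinase acting on Fat and Dachsous. Of 9 WAVE complex genes 2 were higher, *Cyfip2* (1.49, SE 0.20, adjusted p = 4.5e-05) and *Abi1* (0.54, SE 0.14, adjusted p = 0.0073), and none lower.

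From IPC-like to projection neuron-like cells the direction turned. There were 17 genes higher in projection neuron-like cells (*Cdh2*, *Cdh4*, *Cdh11*, *Cdh12*, *Cdh13*, *Cdh18*, *Pcdh1*, *Pcdh7*, *Pcdh8*, *Pcdh9*, *Pcdh17*, *Pcdh18*, *Pcdh19*, *Celsr2*, *Celsr3*, *Fat3* and *Fat4*) and 4 lower (*Cdh20*, *Pcdh15*, *Celsr1* and *Fat1*), while 24.3% of all genes tested were higher and 20.5% lower. *Cdh13*, *Cdh12*, *Cdh18* and *Pcdh9* changed the most among the higher genes, with *Cdh18* at 0.782 and 0.647 CPM in the IPC-like class and 22.6 and 14.8 CPM in the projection neuron-like class (4.44, SE 0.41, adjusted p = 4.8e-07). The higher level of *Pcdh1*, 3.67 and 2.59 CPM against 0.196 and 0 CPM, rests on 1 UMI in the IPC-like cells. The median was 0.58 over the 31 genes and 0.03 over all genes. With the replicate as a block, *Pcdh10* (0.56, adjusted p = 0.031) and *Dchs1* (0.35, adjusted p = 0.015) also passed. The calls for *Cdh2*, *Cdh4*, *Pcdh7*, *Pcdh18* and *Celsr2* were lost in at least 1 of the 8 alternatives, and 16 of the 21 passed in each.

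The partner counts for the step to projection neuron-like cells stand against the same 24.3% higher and 20.5% lower of all genes tested. In the catenin list 9 of 20 genes were higher in projection neuron-like cells and 5 lower, led by the alpha-catenins *Ctnna3* (5.61, SE 0.45, adjusted p = 1.8e-07) and *Ctnna2* (2.40, SE 0.36, adjusted p = 5.5e-05). In the polarity list 4 of 15 were higher and 4 lower, and *Prickle1*, which had fallen in IPC-like cells, was higher here by 5.17 (SE 0.26, adjusted p = 9.6e-10), with *Prickle2* at 3.78 (SE 0.45, adjusted p = 5.4e-06). Of the 9 WAVE complex genes 2 were higher and 1 lower, with *Wasf1* at 1.14 (SE 0.14, adjusted p = 6.4e-06) and *Wasf2* at -1.04 (SE 0.16, adjusted p = 8.1e-05).

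**Figure D3:**
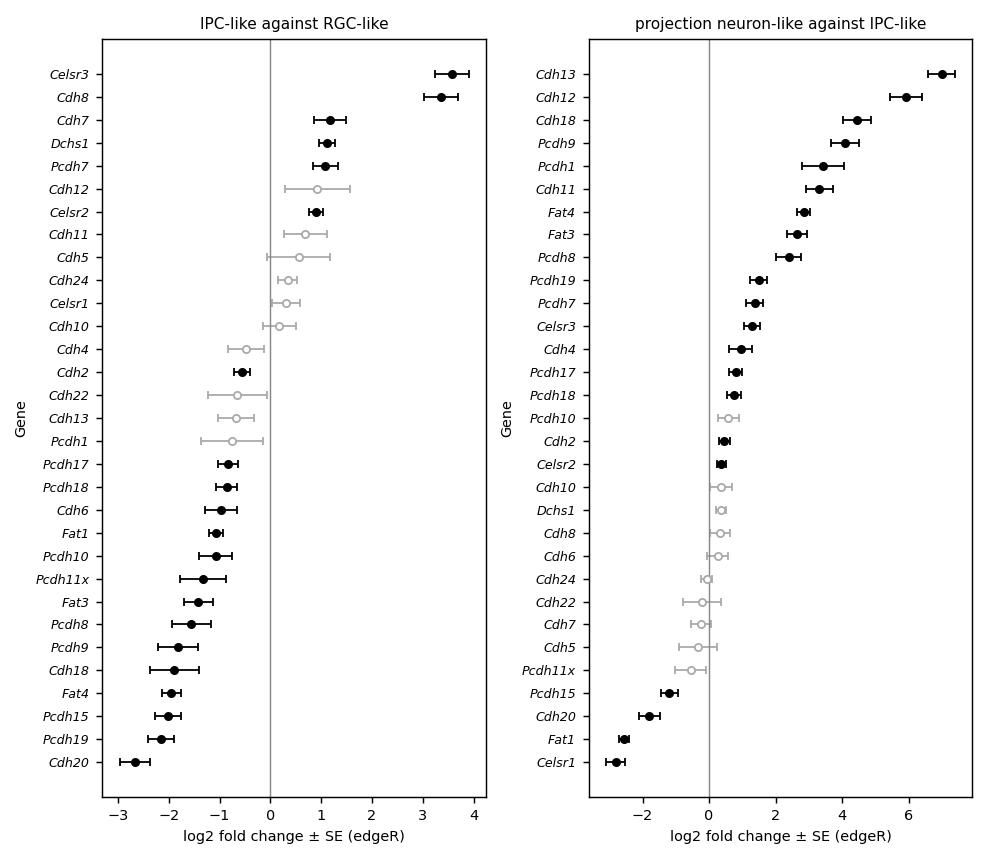
Fitted log2 fold changes with SE from edgeR for the 31 genes tested, for IPC-like against RGC-like cells and projection neuron-like against IPC-like cells, in order of size. Filled black points passed the adjusted threshold and open grey points did not, and the counts are 6 higher and 15 lower at the first step and 17 higher and 4 lower at the second.

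Within projection neurons, deep-layer-like cells were compared with newborn neuron-like cells. In deep-layer-like cells 9 of 32 genes tested were higher (*Cdh9*, *Cdh11*, *Cdh13*, *Cdh18*, *Cdh22*, *Pcdh1*, *Pcdh9*, *Pcdh19* and *Fat4*) and 11 lower (*Cdh8*, *Cdh10*, *Cdh12*, *Pcdh7*, *Pcdh10*, *Pcdh11x*, *Pcdh18*, *Celsr1*, *Celsr2*, *Fat1* and *Dchs1*), against 21.3% higher and 19.4% lower of all 14975 genes tested. *Pcdh18*, for example, stood at 19.6 and 15.5 CPM in the newborn neuron-like class and 2.02 and 1.63 CPM in the deep-layer-like class (-3.10, SE 0.27, adjusted p = 1.5e-05). The median was 0.03 over the 32 genes and -0.01 over all genes. *Cdh4* (-0.54, adjusted p = 0.0079), *Cdh20* (1.35, adjusted p = 0.045), *Fat3* (0.29, adjusted p = 0.013) and *Pcdh8* (-0.57, adjusted p = 0.032) passed only with the replicate as a block. The call for *Cdh12* did not hold under other clusterings, turning to 0.26 at Leiden resolution 2.0 (adjusted p = 0.52), and *Cdh22* was not called by DESeq2. In the partner lists 5 of 20 catenin genes were higher and 7 lower, 2 of 14 polarity genes were higher and 6 lower, and 2 of 9 WAVE complex genes were higher and 2 lower. The largest changes there were *Ctnna3* at 4.62 (SE 0.21, adjusted p = 3.5e-07) and *Pard3* at -1.73 (SE 0.20, adjusted p = 0.00010), *Prickle1* at 5.06 (SE 0.19, adjusted p = 1.7e-07) and *Prickle2* at 3.60 (SE 0.44, adjusted p = 0.00014), and *Wasf1* at 0.78 (SE 0.12, adjusted p = 0.00051) and *Abi2* at 0.56 (SE 0.09, adjusted p = 0.00060).

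Upper-layer-like cells differed from deep-layer-like cells in 18 of the 32 genes, with 4 higher (*Cdh12*, *Pcdh8*, *Pcdh10* and *Pcdh18*) and 14 lower (*Cdh2*, *Cdh6*, *Cdh7*, *Cdh9*, *Cdh10*, *Cdh11*, *Cdh13*, *Cdh18*, *Cdh20*, *Pcdh9*, *Pcdh15*, *Pcdh17*, *Pcdh19* and *Fat4*). Of all genes tested, 8.45% were higher and 12.3% lower. The other 3 genes higher beside *Cdh12* were delta-2 protocadherins, but *Pcdh17* and *Pcdh19*, of the same group, were lower. *Pcdh8* stood at 37.7 and 29.8 CPM against 13.8 and 12.9 CPM (1.30, SE 0.34, adjusted p = 0.024). *Cdh7* had 2.45 and 1.72 CPM in the upper-layer-like class against 17.4 and 24.9 CPM in the deep-layer-like class (-3.27, SE 0.39, adjusted p = 0.00040). *Cdh20* and *Cdh9* each had 1 UMI in the upper-layer-like cells, and no fold change is given for them. The median was -0.65 over the 32 genes and -0.04 over all genes. At Leiden resolution 2.0 the split was 7 higher and 11 lower, *Cdh2*, *Cdh6*, *Cdh10*, *Pcdh9* and *Pcdh19* lost the call in at least 1 alternative, and *Pcdh20* passed only with the block (-1.86, adjusted p = 0.041). Of the partner lists, 4 catenin genes were higher and 2 lower (*Ctnna3* -3.83, SE 0.21, adjusted p = 6.4e-06, and *Vcl* 0.89, SE 0.14, adjusted p = 0.0020). No polarity gene was higher and 3 were lower (*Prickle1* -4.57, SE 0.20, adjusted p = 1.8e-06, and *Vangl1* -2.36, SE 0.59, adjusted p = 0.020), and no WAVE complex gene was higher and 3 were lower (*Wasf1* -0.62, SE 0.12, adjusted p = 0.0063, and *Wasf3* -0.57, SE 0.18, adjusted p = 0.044).

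**Figure D4:**
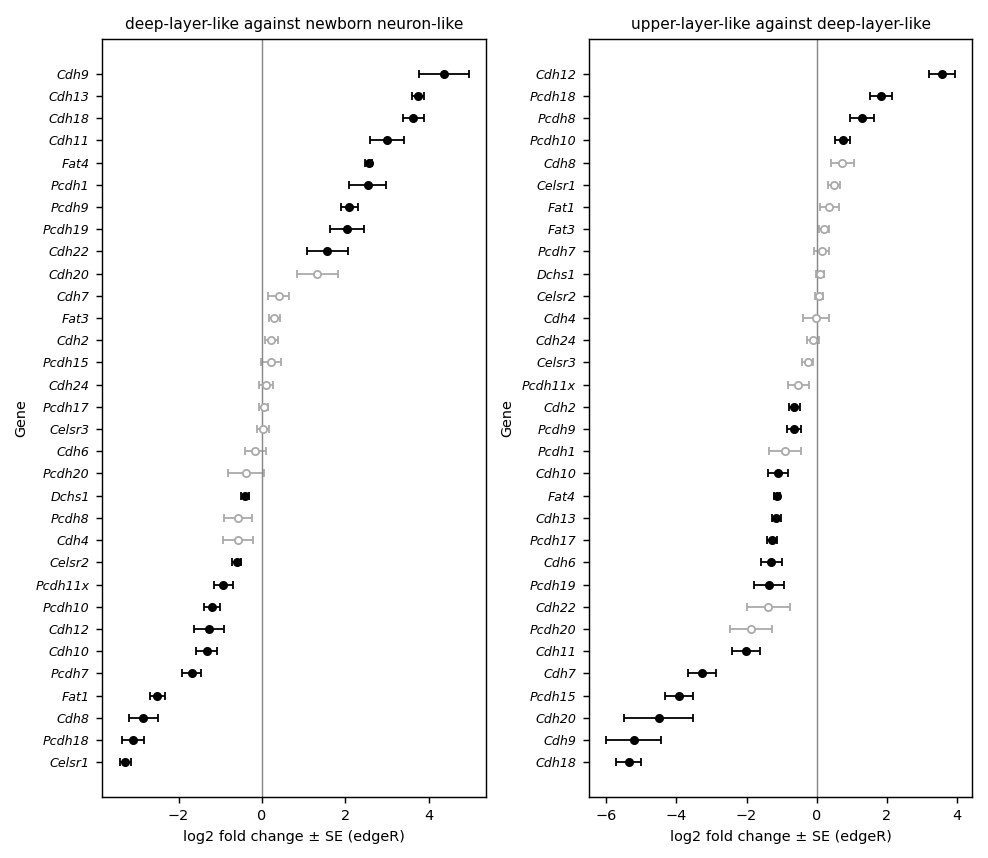
Fitted log2 fold changes with SE from edgeR for the 32 genes tested, for deep-layer-like against newborn neuron-like cells and upper-layer-like against deep-layer-like cells, in order of size. Filled black points passed the adjusted threshold and open grey points did not, and *Cdh18* lies at 3.63 at the first step and at -5.37 at the second.

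MGE interneuron-like cells were set against projection neuron-like cells. In the interneuron-like cells 5 of 31 genes were higher (*Cdh22*, *Cdh24*, *Pcdh15*, *Pcdh17* and *Pcdh19*) and 14 lower (*Cdh4*, *Cdh6*, *Cdh8*, *Cdh10*, *Cdh12*, *Cdh13*, *Cdh18*, *Cdh20*, *Pcdh9*, *Pcdh18*, *Celsr1*, *Celsr2*, *Fat3* and *Fat4*), while 12.8% of all genes tested were higher and 21.0% lower. Of the type II cadherins tested, 6 were lower and 2 higher. *Cdh11* stood at 196 and 248 CPM against 158 and 129 CPM and did not pass the test (0.52, SE 0.37, adjusted p = 0.30), and *Cdh8* still had 189 and 218 CPM against 454 and 400 CPM (-1.17, SE 0.31, adjusted p = 0.010). The lower genes included *Cdh10* at 21.5 and 55.1 CPM against 181 and 130 CPM (-2.21, SE 0.41, adjusted p = 0.00082), and *Cdh6* at 8.5 and 7.59 CPM against 42.5 and 52.4 CPM (-2.60, SE 0.52, adjusted p = 0.0014). *Cdh20* had no UMI in the interneuron-like cells of either library, which makes it at least 2.99-fold lower (floor of 3 counts over the class), and its call was lost with the replicate as a block (-3.84, adjusted p = 0.066). *Pcdh7* (-0.63, adjusted p = 0.011) and, as above, *Pcdh8* passed only with the block. The median was -0.76 over the 31 genes, -0.69 with genes at 0 set to their bound, and -0.11 over all genes.

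DESeq2 gave 7 higher and 11 lower, keeping predicted doublets gave 5 and 8, and 12 of the 19 calls passed in each alternative. The calls lost in at least 1 were those of *Cdh8*, *Cdh18*, *Cdh20*, *Cdh24*, *Pcdh9*, *Celsr1* and *Fat3*, and all 7 were lost with predicted doublets kept. The cells of the 2 classes also differed in depth, as given above, and the 8 projection neuron markers summed to 1516 and 1626 CPM in the interneuron-like cells and to 6219 and 5812 CPM in the class they name. The part of either in these results was not tested. On the set of cells with at least 3000 UMIs the counts were 6 higher and 13 lower. The partner counts here stand against the same 12.8% higher and 21.0% lower of all genes tested. In the partner lists 4 of 20 catenin genes were higher and 4 lower (*Ctnna3* -2.42, SE 0.42, adjusted p = 0.00052, and *Pkp4* 2.14, SE 0.25, adjusted p = 1.6e-05), and 2 of 15 polarity genes were higher and 3 lower (*Ankrd6* -3.61, SE 0.40, adjusted p = 9.8e-06, and *Dchs2* 2.42, SE 0.89, adjusted p = 0.048). Of the 9 WAVE complex genes 3 were higher and 1 lower (*Brk1* -0.88, SE 0.18, adjusted p = 0.0015, and *Abi1* 0.60, SE 0.15, adjusted p = 0.0054).

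Cajal-Retzius-like cells, the *Reln*-rich early neurons of the marginal zone, differed from projection neuron-like cells in 23 of 31 genes. There were 8 higher (*Cdh4*, *Cdh7*, *Cdh18*, *Cdh22*, *Pcdh11x*, *Pcdh15*, *Celsr2* and *Fat1*) and 15 lower (*Cdh2*, *Cdh6*, *Cdh8*, *Cdh10*, *Cdh11*, *Cdh12*, *Cdh13*, *Pcdh7*, *Pcdh8*, *Pcdh9*, *Pcdh17*, *Pcdh18*, *Celsr1*, *Fat4* and *Dchs1*), against 11.9% higher and 14.0% lower of all genes tested. *Pcdh9*, at 194 and 107 CPM, was lower than in projection neuron-like cells with -4.18 on the log2 scale (SE 0.45, adjusted p = 7.3e-06), and *Cdh8*, at 36.9 and 27.3 CPM, with -4.02 (SE 0.41, adjusted p = 5.9e-06). *Pcdh18* had no UMI in this class, which makes it at least 4.65-fold lower. The median was -1.23 over the 31 genes and -0.09 over all genes. *Cdh22* was at 0 CPM in replicate 1 and 14.7 CPM in replicate 3, the one called gene whose replicates went opposite ways, and *Cdh11*, *Cdh22*, *Celsr1* and *Celsr2* lost the call in at least 1 alternative. *Pcdh10* (-1.18, adjusted p = 0.038), *Pcdh19* (-0.94, adjusted p = 0.0093) and, as above, *Fat3* passed only with the block. Of the partners, 3 of 20 catenin genes were higher and 5 lower (*Ctnna3* -2.59, SE 0.47, adjusted p = 0.00098, and *Pkp4* 2.44, SE 0.26, adjusted p = 5.7e-06), 4 of 15 polarity genes were higher and 3 lower (*Prickle1* -4.28, SE 0.36, adjusted p = 5.7e-07, and *Fzd6* 2.83, SE 0.79, adjusted p = 0.017), and 2 of 9 WAVE complex genes were higher and 2 lower (*Wasf3* 1.31, SE 0.25, adjusted p = 0.0014, and *Wasf2* 0.74, SE 0.21, adjusted p = 0.015).

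**Figure D5:**
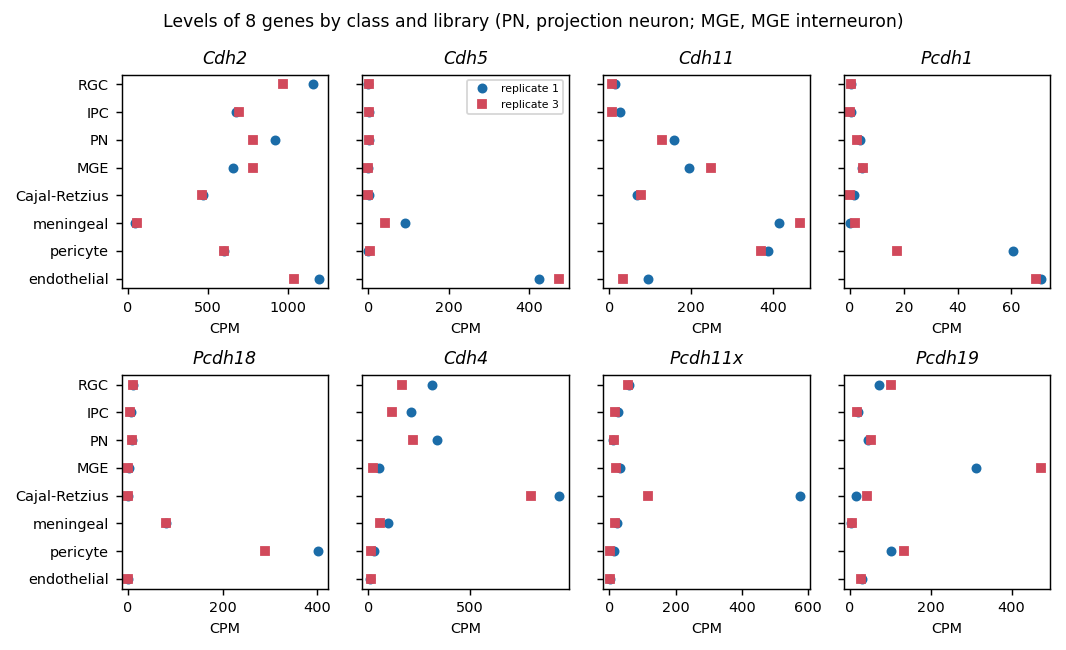
Levels in CPM of 8 genes (1 panel each) in the 8 classes, with a blue circle for replicate 1 and a red square for replicate 3. *Cdh5* and *Pcdh1* are highest in endothelial-like cells, *Cdh11* in meningeal-like cells, *Pcdh18* in pericyte-like cells at 402 and 288 CPM, *Cdh4* and *Pcdh11x* in Cajal-Retzius-like cells and *Pcdh19* in MGE interneuron-like cells, while *Cdh2* is low in meningeal-like cells at 43.6 and 56.2 CPM.

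The 3 classes outside the neural lineage were each compared with RGC-like cells. In meningeal-like cells 4 of 31 genes were higher (*Cdh5*, *Cdh11*, *Pcdh18* and *Dchs1*) and 15 lower (*Cdh2*, *Cdh4*, *Cdh6*, *Cdh7*, *Cdh10*, *Cdh20*, *Pcdh7*, *Pcdh8*, *Pcdh10*, *Pcdh15*, *Pcdh17*, *Pcdh19*, *Celsr1*, *Celsr2* and *Fat3*), while 25.8% of all genes tested were higher and 22.5% lower. *Fat3* stood at 13.1 and 7.76 CPM, lower with -5.20 on the log2 scale (SE 0.43, adjusted p = 1.2e-07), and *Celsr1* at 1.45 and 1.94 CPM, lower with -6.34 (SE 0.61, adjusted p = 6.2e-07). *Cdh7* and *Pcdh8* had no UMI in meningeal-like cells and were at least 6.02-fold and 8.21-fold lower, and *Cdh20* had 3 UMIs. The median was -1.46 over the 31 genes and 0.00 over all genes. All 19 calls passed in each of the 8 alternatives, and *Cdh12* passed only with the block (2.24, adjusted p = 0.039).

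In endothelial-like cells 5 genes were higher than in RGC-like cells (*Cdh5*, *Cdh11*, *Cdh13*, *Pcdh1* and *Pcdh17*) and 16 lower (*Cdh4*, *Cdh6*, *Cdh7*, *Cdh10*, *Cdh20*, *Pcdh8*, *Pcdh9*, *Pcdh10*, *Pcdh11x*, *Pcdh15*, *Pcdh18*, *Pcdh19*, *Celsr1*, *Celsr2*, *Fat1* and *Fat3*), against 22.2% higher and 21.3% lower of all genes tested. *Pcdh17* was higher by 1.33 (SE 0.23, adjusted p = 0.00020), and *Fat1*, at 6.26 and 7.98 CPM, lower with -3.49 (SE 0.30, adjusted p = 1.8e-07). *Cdh20*, *Pcdh10*, *Pcdh18* and *Cdh7* had no UMI in endothelial-like cells and were at least 33.9-fold, 25.7-fold, 4.54-fold and 3.31-fold lower. *Pcdh15* and *Pcdh8* had 1 UMI each and *Pcdh11x* 3. The median was -2.34 over the 31 genes, -1.73 with genes at 0 set to their bound, and -0.08 over all genes. The higher level of *Cdh13*, 98.0 and 31.9 CPM, was called at 2.21 (SE 0.42, adjusted p = 0.00054) and turned to -0.11 with predicted doublets kept (adjusted p = 0.89).

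In pericyte-like cells 3 genes were higher (*Cdh11*, *Pcdh1* and *Pcdh18*) and 17 lower (*Cdh2*, *Cdh4*, *Cdh8*, *Cdh10*, *Cdh20*, *Pcdh7*, *Pcdh8*, *Pcdh9*, *Pcdh10*, *Pcdh11x*, *Pcdh15*, *Pcdh17*, *Celsr1*, *Celsr2*, *Fat3*, *Fat4* and *Dchs1*), while 20.4% of all genes tested were higher and 19.3% lower. *Cdh2*, which joins pericytes to endothelium, stood at 602 and 601 CPM, lower than in RGC-like cells with -0.72 (SE 0.17, adjusted p = 0.0027). *Cdh8* and *Pcdh8* had no UMI and were at least 14.0-fold and 4.11-fold lower, and *Fat4* had 3 UMIs, *Celsr2*, *Pcdh17* and *Cdh20* 1 each. The median was -2.49 over the 31 genes, -2.04 with genes at 0 set to their bound, and -0.10 over all genes. *Pcdh19* passed only with the block (0.54, adjusted p = 0.033), and the call for *Dchs1* was lost at Leiden resolution 2.0.

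Among partners of the 3 classes outside the neural lineage, plakoglobin (*Jup*), a catenin of strong junctions, was higher than in RGC-like cells in each, by 5.0 in meningeal-like (SE 0.41, adjusted p = 1.3e-07), 7.18 in endothelial-like (SE 0.37, adjusted p = 6.6e-10) and 6.64 in pericyte-like cells (SE 0.39, adjusted p = 3.9e-09). The counts that follow stand against 25.8% higher and 22.5% lower of all genes tested in meningeal-like, 22.2% and 21.3% in endothelial-like and 20.4% and 19.3% in pericyte-like cells. The catenin list had 7 higher and 5 lower, 10 higher and 4 lower, and 10 higher and 8 lower of 20 in these classes. Its next largest changes were *Ctnnd2* in meningeal-like (-4.57, SE 0.34, adjusted p = 3.9e-08) and pericyte-like cells (-5.19, SE 0.38, adjusted p = 4.0e-08) and *Nectin2* in endothelial-like cells (3.70, SE 0.25, adjusted p = 1.1e-08). The polarity list had 7 higher and 3 lower, 4 higher and 4 lower, and 7 higher and 4 lower of 15, led by *Prickle2* and *Fzd6* in meningeal-like cells (5.47, SE 0.43, adjusted p = 7.3e-08, and 4.26, SE 0.34, adjusted p = 1.6e-07). *Fzd6* (5.57, SE 0.34, adjusted p = 9.8e-09) and *Ankrd6* (-4.29, SE 0.46, adjusted p = 2.1e-06) led it in endothelial-like cells, and *Dchs2* (5.59, SE 0.81, adjusted p = 5.2e-05) and *Prickle2* (5.01, SE 0.43, adjusted p = 2.4e-07) in pericyte-like cells. The WAVE complex list had 2 higher and 1 lower, 5 higher and 3 lower, and 5 higher and 1 lower of 9. Its members with the largest changes were *Wasf2* (1.04, SE 0.18, adjusted p = 0.00017) and *Cyfip2* (0.80, SE 0.24, adjusted p = 0.013) in meningeal-like cells, *Wasf3* (-6.65, SE 0.95, adjusted p = 5.1e-05) and *Cyfip2* (-2.59, SE 0.49, adjusted p = 0.00047) in endothelial-like cells, and *Wasf2* (1.83, SE 0.18, adjusted p = 1.0e-06) and *Wasf1* (-1.41, SE 0.27, adjusted p = 0.00064) in pericyte-like cells.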

How the data were processed

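The deposited tables held raw UMI counts of genes by cell barcodes, made by the authors from 10x Genomics 3′ libraries with Cell Ranger 7.0.0 and the build mm10 (submitters' processing notes) and used as deposited. Annotation, intron setting and cell calling are not given in the sources used here, and whether reads in introns were counted could change the level of these long genes. The 36 genes and the partner lists were chosen with earlier results of these data known.

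Barcodes with 1500 to 60000 UMIs and at most 10% mitochondrial UMIs were kept, removing 710 in replicate 1 and 1387 in replicate 3. Doublets were scored against simulated ones, and 304 and 629 barcodes were removed at 0.8% per 1000 barcodes. Clustering used 2000 variable genes picked with scanpy 1.11.5, 30 components, 15 neighbours and Leiden resolution 1.0 in igraph 0.11.9. GABAergic clusters were then pooled and clustered again on variable genes of their own. Cajal-Retzius-like and unnamed clusters of enough cells were each clustered again in the same way. The MGE interneuron-like and Cajal-Retzius-like classes stem from this second round. A marker counted as on above 0.5 of its range over clusters in log2(CPM + 1) and in at least 10% of cells. A class name needed at least 3 markers and a share of at least 0.5 of its list. It was also checked against the 10 leading genes of the cluster, more strictly in the second round. Details of this naming rule were settled after marker levels were seen. UMIs were summed per class and replicate where both replicates had at least 20 cells.

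Sums were tested with edgeR 4.0.16 (R 4.3.3): TMM, filterByExpr, the quasi-likelihood test without a block, prior count 2 for fold changes, and Benjamini-Hochberg adjustment over all genes tested at a threshold of 0.05. SEs were derived from the log2 fold change and the square root of its F statistic. One fit held the 8 classes (12907 genes) and another the projection neuron subclasses (14975 genes). *Cdh1*, *Cdh3* and *Cdh19* passed the filter on low counts in neither fit, *Cdh9* and *Pcdh20* only in the second and *Cdh5* only in the first. All class sums with the same replicate number stem from the same library and are paired by it, and the correlation of paired deviations across genes was 0.037 to 0.327 over 9 comparisons, above 0.1 in 6. On simulated counts with log2 changes of 1, 78.9% of changed genes were recovered for IPC-like against RGC-like cells (12907 genes, 3 of 109 calls false). The share was 52.6% for MGE interneuron-like against projection neuron-like cells (12907 genes, 1 of 78). It was 63.3% for deep-layer-like against newborn neuron-like cells (14975 genes, 12 of 112). With log2 changes of 0.5, these shares were 11.1%, 1.23% and 12.2%. The counts were drawn without the pairing by library and without the clustering step, so these rates need not hold for the tests reported here.

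Alternatives were library sizes only, no filter, a replicate block, cells with at least 3000 UMIs, doublets kept, resolution 2.0, the 36 genes and partners allowed among variable genes, DESeq2 1.42.0, and each replicate left out. Each of the 36 genes was accounted for, with values for those at 10 CPM or more in both replicates of a class and for those that passed a test. From partner lists, the 2 genes with the largest change among those called were named. MGE interneuron-like against caudal ganglionic eminence (CGE) interneuron-like or LGE-like cells, and hem or choroid plexus-like against RGC-like cells, were not tested, since a library held fewer than 20 cells of a class. No cluster met the markers of subplate neurons.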

Additional observations from a re-analysis of the deposited data

How the results depend on the processing

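Of the 182 calls among 281 tests of the 36 genes, 148 kept their direction and passed the threshold in each of the 8 alternatives that allow a test. Per alternative, 174 calls held with library sizes only, 179 without the filter on low counts, 181 with the replicate block, 179 on cells with at least 3000 UMIs, 158 with predicted doublets kept, 163 at Leiden resolution 2.0, 179 with the 36 genes among the variable genes and 172 with DESeq2. The replicate block, whose values stand beside the genes it moved, gave 16 further calls, lost that of *Cdh20* in MGE interneuron-like cells (-3.84, adjusted p = 0.066) and changed no other. The number of called genes stayed within 1.5 times of the reported one in each of the 9 comparisons.

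Reversed directions were *Cdh20* in MGE interneuron-like cells (1.04, adjusted p = 0.15) and *Cdh13* in endothelial-like cells (-0.11, adjusted p = 0.89) with predicted doublets kept. *Cdh12* in deep-layer-like against newborn neuron-like cells was 0.26 (adjusted p = 0.52) at resolution 2.0 and 0.57 (adjusted p = 0.10) with the 36 genes among the variable genes. *Cdh22* in Cajal-Retzius-like cells was -0.84 without replicate 3 and 2.55 without replicate 1. The cause was not tested for any of these. Without replicate 1 or 3 no spread remains, so no test or count of calls could be had. In 55 and 59 of the 182 calls, the remaining log2 difference lay more than the standard deviation of the replicates from the fitted log2 fold change. The difference is of log2(CPM + 1) and the fold change is fitted, so this count does not measure stability between replicates.

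Library sizes alone shifted the median of all genes by 0.261 in Cajal-Retzius-like, -0.171 in endothelial-like and -0.101 in meningeal-like cells, and by -0.14 in projection neuron-like against IPC-like cells. The class of the highest level was the same in both replicates for 26 of the 30 genes, 26 on cells with at least 3000 UMIs, 27 at resolution 2.0 and 28 with doublets kept, but 25 of the 26 genes kept it at resolution 2.0 (not *Cdh24*) and 25 with doublets kept (not *Pcdh10*). By thinned shares of cells, the highest class was the same in both replicates for 25 genes at 3000 UMIs and 22 at 1500 UMIs. Depth limits the classes of few cells most, where a gene at 0 over both libraries is bounded only at 2.68 CPM in pericyte-like and 2.44 CPM in endothelial-like cells.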

Other observations

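Classes that entered no comparison also carried these genes. CGE interneuron-like cells (64 and 19 cells in replicates 1 and 3) had 3092 and 1580 CPM of *Pcdh9*, 1087 and 1278 CPM of *Cdh2*, 171 and 211 CPM of *Pcdh19*, and 360 and 624 CPM of *Fat3*. LGE-like cells, found in replicate 1 only, had 206 CPM of *Pcdh10*, 378 CPM of *Cdh8*, 333 CPM of *Cdh13* and 91.5 CPM of *Cdh12*. Hem or choroid plexus-like cells (19 and 107 cells) had 20.2 and 57.7 CPM of *Cdh3*, 121 and 144 CPM of *Fat1*, 106 and 119 CPM of *Cdh13* and 96.0 and 50.7 CPM of *Celsr1*, while *Cdh3* did not exceed 4.36 CPM in the 8 classes compared.

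Clusters within a class differed as well, given here as values without a test. Among RGC-like clusters, the one led by *Ltbp1* had 566 and 622 CPM of *Fat3* and 11.6 and 12.1 CPM of *Cdh6*, and the one led by *Thsd4* had 240 and 268 CPM of *Fat3* and 171 and 118 CPM of *Cdh6*. *Pcdh10* was highest in the mitotic cluster led by *Cenpa*, at 143 and 90.2 CPM, against 27.4 and 21.1 CPM in the one led by *Ltbp1*. Among MGE interneuron-like clusters, *Cdh13* stood at 453 and 375 CPM in one of those led by *Nxph1* and 18.2 and 27.4 CPM in the other, and *Cdh9* at 36.3 and 14.4 CPM against 4.55 and 5.14 CPM. Among Cajal-Retzius-like clusters, *Pcdh11x* in replicate 1 ranged from 0 to 995 CPM and in replicate 3 from 19.6 to 158 CPM.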
